A study of Homo sapiens with 6 samples.

Results

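The genes described here are the 8 best known writers and erasers of DNA methylation: DNMT1, DNMT3A, DNMT3B, UHRF1, TET1, TET2, TET3 and TDG. They were taken by symbol from the 59008 gene symbols of the deposited expression table, and all 8 were found. RNA sequencing was performed on 6 libraries, 1 for each of 3 states in the established ovarian cancer cell lines Hey and SKOV3, both of human origin. The states were parental cells without treatment, polyploid giant cancer cells (PGCCs) and daughter cells. PGCCs are large cells with multiplied genomes that survive mitotic failure. For both lines the treatment label of the PGCC library gives 500 nM paclitaxel for 16 h and then 3 days of recovery. Paclitaxel is a microtubule-stabilizing drug under which cells fail to complete mitosis. The title of the SKOV3 PGCC library gives day 7 instead. The daughter cells had the same paclitaxel treatment and 30 days of recovery, and the titles name them as clone 1, so each daughter library stands for 1 clone. No state was repeated within a line, so the values carry no replicate error, and each comparison can be repeated only in the other line.

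DNA methylation is the addition of a methyl group to cytosine, mostly where a guanine follows. When DNA is copied, UHRF1 binds the hemimethylated site and brings DNMT1, which methylates the new strand, so the pattern is kept through division. DNMT3A and DNMT3B methylate sites that carried no mark. TET1, TET2 and TET3 oxidize the methyl group, and TDG, a thymine DNA glycosylase, cuts out the oxidized bases for replacement by base excision repair. Without the maintenance enzymes, the mark is diluted as cells divide. In ovarian and other carcinomas, loss of methylation over much of the genome is found together with gain at some promoters.

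Values are transcripts per 1000000 (TPM), a level corrected for transcript length and scaled within each library. A difference is that of log2(TPM + 1) between a pair of libraries of 1 line, and a gene was called at a difference of at least 1, which is 2-fold on that scale. It understates the change of genes at low levels. In bulk RNA, fewer cells expressing a gene and less of its RNA per cell cannot be told apart, and a TPM does not measure the total RNA of a cell. Each library summed to 911825 to 920497 TPM over the table. The share of mitochondrial genes was 2.64%, 12.3% and 7.60% in Hey (parental cells, PGCCs, daughter cells) and 9.17%, 7.37% and 14.8% in SKOV3. The epithelial keratin genes KRT7, KRT8 and KRT18 and the ovarian marker PAX8 were high in all 6 libraries, at 54.7 TPM or more. The epithelial markers EPCAM and KRT19 were at 3.6 TPM or less in Hey. WT1 and MUC16, ovarian markers on the same list as PAX8, were low in every library, at 4.10 TPM or less and 1.59 TPM or less. The leukocyte markers PTPRC and CD3E were at 0.425 TPM or less in every library, and CD14 at 0.250 TPM or less. CD68, a macrophage marker on the same list, was at 46.3, 69.3 and 45.6 TPM in Hey and 17.1, 20.03 and 0.840 TPM in SKOV3. The endothelial marker CDH5 was at 33.2 to 48.5 TPM in Hey, where VWF was at 0.0988 TPM or less.

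The sequences around a RefSeq transcript start of DNMT1 and UHRF1 are shown because these genes lay furthest below parental cells in Hey PGCCs. Both lie on chromosome 19 of GRCh38. DNMT1 is at chr19:10133342-10231286 on the minus strand, and UHRF1 is at chr19:4903080-4962154 on the plus strand (GENCODE release 44). Each window holds 250 bases before and 50 bases after a transcript start in RefSeq (GRCh38.p14), written 5′ to 3′ on the gene's strand. Both windows lie inside the outer bounds of the GENCODE genes, which also hold transcripts that start further upstream, and each is the window nearest to the start of the gene's canonical transcript. Capitals mark matches on either strand to TTTNNCGC, a core form of the site bound by E2F factors, which drive genes of DNA replication.
DNMT1, chr19:10194904-10195203, minus strand: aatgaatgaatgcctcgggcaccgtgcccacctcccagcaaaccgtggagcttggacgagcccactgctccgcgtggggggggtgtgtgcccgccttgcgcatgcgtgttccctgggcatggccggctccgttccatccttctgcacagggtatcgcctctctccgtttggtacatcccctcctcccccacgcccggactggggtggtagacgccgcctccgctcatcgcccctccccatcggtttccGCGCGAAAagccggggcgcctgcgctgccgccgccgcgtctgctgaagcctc
UHRF1, chr19:4909251-4909550, plus strand: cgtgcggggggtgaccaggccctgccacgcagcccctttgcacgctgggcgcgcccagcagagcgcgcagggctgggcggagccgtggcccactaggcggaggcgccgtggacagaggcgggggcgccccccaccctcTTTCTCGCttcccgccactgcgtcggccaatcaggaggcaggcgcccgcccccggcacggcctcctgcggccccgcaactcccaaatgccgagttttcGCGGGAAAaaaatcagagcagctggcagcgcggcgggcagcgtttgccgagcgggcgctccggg

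The DNMT1 match reads TTTCGCGC on the opposite strand, begins 2 bases before the start and runs across it. In the UHRF1 window, TTTCTCGC begins 112 bases before the start on the gene's strand, and TTTCCCGC begins 14 bases before it on the other strand. Over all RefSeq windows of the same length, 6.89% held the motif. By gene, 8.23% of 27305 genes had it in at least 1 window, as did 2 of the 8 methylation genes, DNMT1 and UHRF1. The DNMT1 window held 30 CpG sites and the UHRF1 window 36, where the median of all windows was 14. A match is a run of letters and not a measured binding site. The other genes lie at chr2:25227855-25342590 (DNMT3A, minus strand), chr20:32762385-32809359 (DNMT3B), chr10:68560337-68694487 (TET1), chr4:105145875-105279816 (TET2), chr2:73984910-74108176 (TET3) and chr12:103965822-103988874 (TDG), with the last 5 on the plus strand.

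DNMT1 was the most abundant of the 8 genes in 5 libraries, and TET1 was the lowest in all 6. In Hey PGCCs the order differed at the top, with TDG at 23.4 TPM above DNMT1 at 18.4 TPM. Without replicates, neighbours in the order cannot be told apart by a test. UHRF1 and TDG in Hey parental cells, at 19.0 and 18.9 TPM, and DNMT3B and UHRF1 in SKOV3 daughter cells, at 23.5 and 23.1 TPM, were almost equal. TET1, at a mean below 1 TPM over the libraries, was the only one of the 8 genes under the filter on low values. It is described here and was left out of the test across genes.

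**Figure D1:**
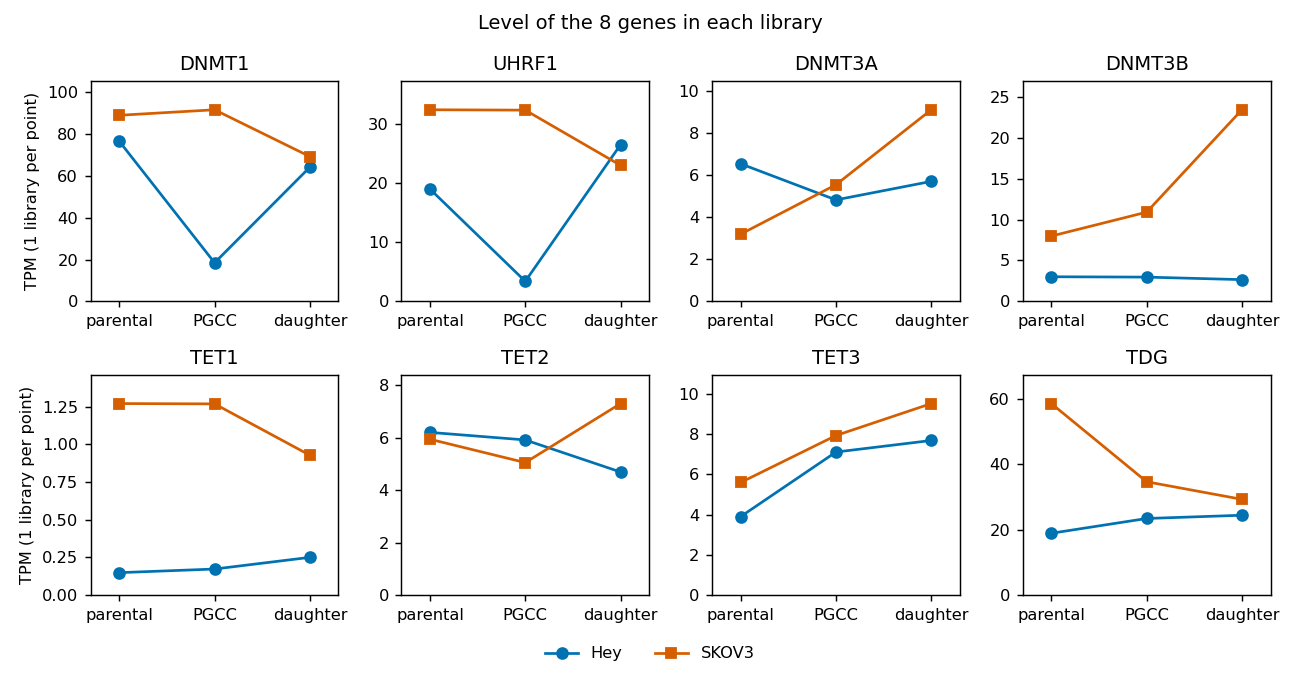
Level in TPM (vertical axis, a separate scale from 0 in each panel) of each of the 8 genes in parental cells, PGCCs and daughter cells. Each point is 1 library, lines join the libraries of a cell line, and there are no error bars because no state was repeated. In Hey PGCCs, DNMT1 at 18.4 TPM and UHRF1 at 3.39 TPM stood below every other library, and DNMT3B was highest in SKOV3 daughter cells, at 23.5 TPM.

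The maintenance genes were low in 1 library, the PGCCs of Hey. DNMT1, the maintenance methyltransferase, was at 76.6 TPM in parental Hey cells, 18.4 TPM in their PGCCs and 64.2 TPM in daughter cells. In SKOV3 it was at 89.0, 91.7 and 69.3 TPM. The Hey PGCC library was thus the low one, and the other 5 lay between 64.2 and 91.7 TPM. Its difference from parental cells was -2.00 on the log2 scale in Hey, or 4.15-fold lower in TPM, and 0.04 in SKOV3. UHRF1, which reads the hemimethylated site, was at 19.0, 3.39 and 26.5 TPM in Hey and at 32.5, 32.4 and 23.1 TPM in SKOV3. Its difference between PGCCs and parental cells was -2.19 in Hey, 5.61-fold lower in TPM, and -0.0028 in SKOV3. Among the 14988 genes with a mean of at least 1 TPM, 0.781% had a lower difference than DNMT1 in this Hey comparison, and 0.5% a lower one than UHRF1.

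In Hey PGCCs against parental cells, 2 of the 8 genes were called lower, against 5.22% of all genes, and 0 were called higher, against 7.67%. In the same comparison in SKOV3, 0 were called lower (background 4.96%) and 0 higher (9.94%). The median difference of the 8 genes was -0.04 in Hey and 0.02 in SKOV3, beside 0 and 0.02 over all genes. The calls of DNMT1 and UHRF1 in Hey had no counterpart in SKOV3. In SKOV3 this comparison followed the base composition of the genes, with a Spearman correlation of 0.72 between difference and GC content over 13468 genes, where Hey had -0.0445. The median difference in SKOV3 was -0.53 for genes under 40% GC and 0.93 for genes at 60% GC or more. DNMT1 has a GC content of 54.9% and UHRF1 of 55.7%. Once a trend over GC content and length was taken out, the SKOV3 differences were -0.46 for DNMT1 and -0.50 for UHRF1, still under 2-fold, so the near-zero values in SKOV3 depend on the scale.

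The daughter cells of Hey had both genes back near the parental level. Against PGCCs, DNMT1 was 3.48-fold and UHRF1 7.83-fold higher in TPM, with log2 differences of 1.75 and 2.65. Of the 8 genes, 2 were called higher, against 9.95% of all genes, and 0 lower, against 8.13%. Against parental cells the differences were -0.25 for DNMT1 and 0.46 for UHRF1. None of the 8 was called in Hey daughter cells against parental cells, where 6.31% of all genes were higher and 3.73% lower. In SKOV3 the daughter cells had somewhat lower values than parental cells for both, with differences of -0.36 and -0.48 that did not reach 2-fold.

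**Figure D2:**
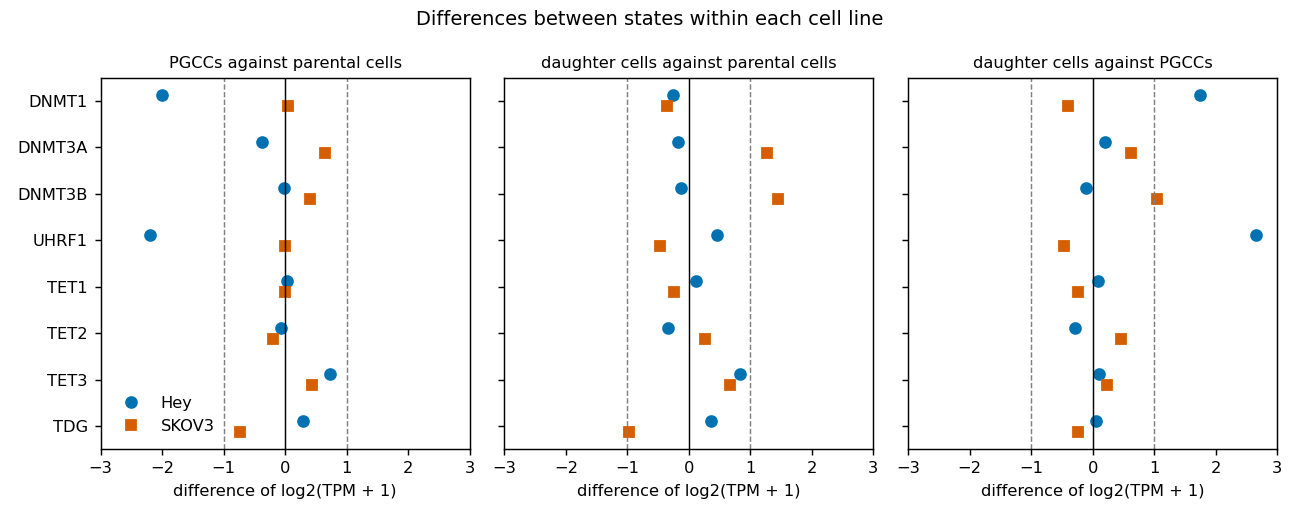
Difference of log2(TPM + 1) of each gene in the 3 comparisons within each line, with the 2-fold threshold on either side of 0. In Hey the calls are DNMT1 and UHRF1, lower in PGCCs and higher again in daughter cells, and in SKOV3 they are DNMT3A and DNMT3B in daughter cells.

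The genes that work beside DNMT1 and UHRF1 at the replication fork were compared next. The list holds 8 genes: UHRF2, USP7, PCNA, HELLS, CDCA7, PCLAF, LIG1 and ZBTB24. In Hey PGCCs 4 of them were called lower than in parental cells and 0 higher, with a median of -1.15. Of all genes, 5.22% were lower and 7.67% higher. These were HELLS, a chromatin remodeller, CDCA7, its partner, PCLAF, which binds the clamp PCNA, and LIG1, the ligase that joins newly made strands. HELLS was at 44.5, 10.3 and 53.0 TPM in Hey and at 35.8, 13.8 and 25.3 TPM in SKOV3. PCLAF was at 56.1, 10.1 and 40.7 TPM in Hey and at 98.6, 45.9 and 57.6 TPM in SKOV3. In both lines the PGCC library was the lowest for these genes. CDCA7 was at 52.5, 8.11 and 31.1 TPM in Hey and at 44.4, 31.7 and 42.6 TPM in SKOV3. LIG1 was at 15.1, 4.32 and 27.7 TPM in Hey and at 25.8, 34.6 and 22.0 TPM in SKOV3. CDCA7, LIG1 and PCNA are named because they were called and were chosen after their values were seen.

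In SKOV3 PGCCs 3 of the 8 partners were called lower, beside 4.96% of all genes. They were PCNA, HELLS and PCLAF, with differences of -1.004, -1.31 and -1.09 and a median of -0.53 for the list. After removal of the GC and length trend these were -0.69, -0.77 and -0.64, and 0 of the 8 were called in SKOV3, while the count in Hey was 4 as before. Of all genes, 2.64% were then lower in SKOV3 and 4.97% in Hey. In Hey daughter cells against PGCCs, 4 were called higher (median 1.24), beside 9.95% of all genes. In SKOV3 0 were, beside 14.6%.

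DNMT1 and UHRF1 moved beside genes of DNA replication in Hey. The 10 replication markers (MCM2 to MCM7, RRM2, TYMS, MKI67 and CCNE2) encode the replicative helicase, nucleotide synthesis enzymes, a proliferation marker and a cyclin of the start of DNA synthesis. In Hey PGCCs all 10 were called lower than in parental cells, with a median difference of -2.02, beside 5.22% of all genes. All 10 were called higher in daughter cells than in PGCCs, with a median of 2.28, beside 9.95%. In SKOV3 PGCCs 2 were called lower, beside 4.96% of all genes, RRM2 at -1.57 and CCNE2 at -1.48, and the median was -0.17. Without the GC and length trend the count was 1, since CCNE2 came to -0.73, and 2.64% of all genes were lower. MCM2 was at 35.1, 8.89 and 53.1 TPM in Hey and at 46.4, 67.3 and 47.2 TPM in SKOV3. The DNMT1 and UHRF1 differences in Hey PGCCs lay beside the median of the replication markers. The part of these replication markers in the DNMT1 and UHRF1 values was not tested. Of the 7 replication markers with a promoter window, 5 held the motif TTTNNCGC, MCM2, MCM3, MCM6, MCM7 and TYMS, beside 8.23% of all genes. E2F factors drive genes of DNA replication, so this share in a replication list carries no test. The share over all genes was not matched for CpG sites, and a link between motif and RNA level was not tested. 

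**Figure D3:**
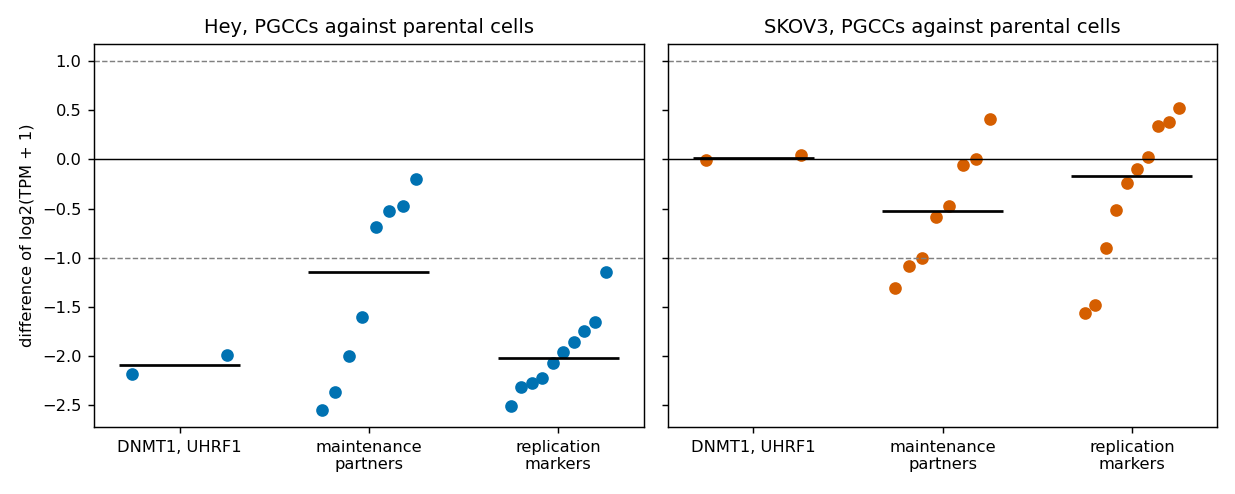
Difference of log2(TPM + 1) between PGCCs and parental cells (vertical axis) for DNMT1 and UHRF1, the 8 maintenance partners and the 10 replication markers, in Hey (left) and SKOV3 (right). Each point is a gene, bars are group medians and dashed lines mark 2-fold. In Hey all 10 markers lie below the lower 2-fold line with DNMT1 and UHRF1, and in SKOV3 2 of them do.

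As a further description, the genes whose levels followed those of DNMT1 and UHRF1 most closely were sought among 10792 genes with a mean of at least 5 TPM, as Pearson's r of log2(TPM + 1) over the 6 libraries with the mean of each line removed. The 6 points share 3 libraries of each line, and no p is given. For DNMT1 the nearest were KIFC1 (r 0.995), a mitotic kinesin, SP1 (0.994), a transcription factor, ARHGEF39 (0.994), CLN6 (0.993) and SAMM50 (0.991). UHRF1 stood at rank 55 for DNMT1, with r 0.963. For UHRF1 the nearest were KAT14, GTSE1, AURKB, CIT and WIPF1, each at r 0.998. AURKB encodes a kinase of chromosome segregation and CIT a kinase of cell separation. The named genes were not tested as a set. Each of them was lowest in Hey PGCCs, by amounts that differed widely. From Hey parental cells to PGCCs, SAMM50 was at 52.6 and 41.3 TPM, and KIFC1 at 60.6 and 7.44 TPM.

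Among the de novo enzymes the calls were in SKOV3. DNMT3A was at 6.55, 4.83 and 5.71 TPM in Hey parental cells, PGCCs and daughter cells, and at 3.20, 5.55 and 9.12 TPM in SKOV3. DNMT3B was at 3.01, 2.96 and 2.65 TPM in Hey and at 7.99, 10.9 and 23.5 TPM in SKOV3. The SKOV3 daughter library was the highest of the 6 for both, and in Hey all 3 DNMT3B values lay close together. Against parental cells, SKOV3 daughter cells had 2.85-fold more DNMT3A and 2.94-fold more DNMT3B in TPM, log2 differences of 1.27 and 1.44, and 89.7% and 91.8% of all genes had a smaller one. In Hey the differences were -0.17 and -0.13.

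In SKOV3 daughter cells against parental cells, 2 of the 8 genes were called higher, against 15.1% of all genes, and 0 lower, against 6.34%. Against PGCCs, 1 was called higher, DNMT3B at 2.15-fold in TPM, against 14.6% of all genes, and 0 lower, against 9.25%. Many genes were called in these comparisons, and 1 or 2 of 8 is not far from the background. The DNMT3A call was lost with a GC and length trend removed (difference 0.80) and with quantile normalization (0.89). The DNMT3B call against parental cells was kept in all settings, with differences of 1.11 to 1.55. The call against PGCCs was lost with median-ratio scaling (0.89) and with quantile normalization (0.94).

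The SKOV3 daughter library also stood apart in markers of cell type. The fibroblast marker list had a summed level of 28.2 TPM there, and 12.9 and 12.6 TPM in SKOV3 parental cells and PGCCs, and 0.263 to 3.64 TPM in Hey. COL1A1, the chain of type I collagen, was at 16.3 TPM and PDGFRB at 5.35 TPM in SKOV3 daughter cells. COL1A2, the other chain of that collagen, was at 0.0137 TPM and COL3A1 at 0. Other markers of the list went down, with LUM at 8.84, 9.31 and 5.56 TPM and DCN at 1.33, 0.522 and 0.0292 TPM in SKOV3 parental cells, PGCCs and daughter cells. PDGFRA went up, at 0.0074, 0.609 and 0.945 TPM. EPCAM was at 68.8, 43.6 and 8.15 TPM in SKOV3 parental cells, PGCCs and daughter cells. The part of these differences in the DNMT3A and DNMT3B values was not tested.

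The split of the methyltransferase RNA among DNMT1, DNMT3A and DNMT3B differed between libraries. DNMT1 made up 88.9% of their summed TPM in parental Hey cells, 70.3% in their PGCCs and 88.5% in daughter cells. In SKOV3 it made up 88.8%, 84.8% and 68.0%. The low shares arose in different ways. In Hey PGCCs the sum was 26.2 TPM, against 86.1 in parental cells and 72.6 in daughter cells, and DNMT3A and DNMT3B were near their parental levels. In SKOV3 daughter cells the sum was 102 TPM, near the 100.2 of parental cells and the 108 of PGCCs, and DNMT3B made up 23.0% of it, against 7.97% in parental cells. The ratio of summed DNMT to summed TET RNA was 8.40, 1.99 and 5.75 in Hey and 7.83, 7.59 and 5.74 in SKOV3. It was lower in the daughter cells than in the parental cells of both lines.

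**Figure D4:**
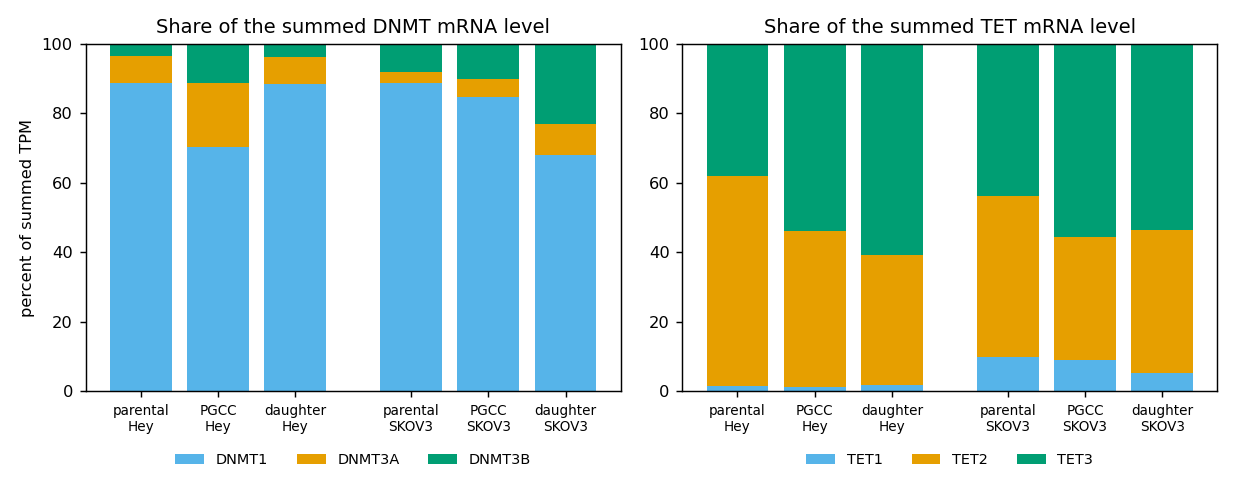
Share of the summed TPM of the DNMT genes (left) and of the TET genes (right) made up by each gene, in percent, for the 6 libraries. DNMT1 makes up 70.3% in Hey PGCCs and 68.0% in SKOV3 daughter cells, and the TET3 share, 38.0% and 43.7% in Hey and SKOV3 parental cells, is 53.6% to 60.8% in the other 4 libraries.

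With the main settings, the partners of the de novo enzymes gave calls in Hey only. The list holds DNMT3L, an inactive cofactor of DNMT3A and DNMT3B, the histone methyltransferases NSD1, NSD2, SETD2 and EZH2, the demethylase KDM1B, and ZFP57 and TRIM28, which protect methylation at imprinted genes. DNMT3L was listed at 0 in all 6 libraries. NSD2 was at 102, 27.3 and 104 TPM in Hey and at 97.1, 92.6 and 108 TPM in SKOV3. It was called lower in Hey PGCCs at -1.87, the only call of the 8 in the comparison, beside 5.22% of all genes. In Hey daughter cells against PGCCs 2 were called higher, NSD2 at 1.90 and TRIM28 at 1.06, beside 9.95% of all genes. With the GC and length trend removed 1 was, beside 8.08%. In SKOV3 0 of the list were called in PGCCs against parental cells (9.94% of all genes higher, 4.96% lower). The count was also 0 in daughter cells against parental cells (15.1% and 6.34%) and against PGCCs (14.6% and 9.25%). TRIM28, a corepressor, was at 180, 98.1 and 206 TPM in Hey and 191, 376 and 204 TPM in SKOV3.

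None of the erasers was called in any comparison, but TET3 was above parental cells in all 4 treated libraries. TET3 was at 3.90, 7.10 and 7.68 TPM in Hey parental cells, PGCCs and daughter cells, and at 5.59, 7.92 and 9.51 TPM in SKOV3. Daughter cells had differences of 0.83 in Hey and 0.67 in SKOV3, and PGCCs of 0.73 and 0.44, all below 2-fold. The SKOV3 PGCC difference became -0.07 once the GC and length trend was subtracted, so its direction depends on the scale. In SKOV3 daughter cells the difference was 0.19 without that trend and 0.29 with quantile normalization. Of all genes, 70.7% (PGCCs) and 75.1% (daughter cells) had a smaller difference in SKOV3, and 87.3% and 90.6% in Hey. The PGCC and daughter differences of a line share its parental library. TET2 was at 6.20, 5.92 and 4.69 TPM in Hey and 5.94, 5.05 and 7.30 TPM in SKOV3, a narrow range. TET1 was at 0.149, 0.173 and 0.251 TPM in Hey and 1.27, 1.27 and 0.928 TPM in SKOV3. It was the gene with the largest ratio between parental lines, 8.53-fold higher in SKOV3, at Hey levels of 0.251 TPM or less.

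TDG was at 18.9, 23.4 and 24.4 TPM in Hey and at 58.6, 34.7 and 29.3 TPM in SKOV3. The SKOV3 parental library was the high one, 3.10-fold above that of Hey, and the lines differed less in daughter cells, at 1.20-fold. In SKOV3 daughter cells TDG was 2.0-fold lower than in parental cells in TPM, and -0.98 as a log2(TPM + 1) difference, just under the threshold. With median-ratio scaling it was -1.18 and with quantile normalization -1.12, which would be called. TDG is a gene of low GC content, at 39.0%, and its difference in SKOV3 PGCCs of -0.74 became -0.22 when that trend over GC content and length was subtracted.

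The 16 partners of the erasers, which make up base excision repair and factors linked to demethylation, were compared in the same way. LIG3, a DNA ligase of base excision repair, was called higher in daughter cells of both lines against parental cells, at 1.76 in Hey and 1.27 in SKOV3, the latter 0.94 without the GC and length trend. It was at 7.00, 2.80 and 26.1 TPM in Hey and at 15.4, 31.2 and 38.5 TPM in SKOV3. GADD45A, a stress-response gene, was at 173, 565 and 110 TPM in Hey and at 109, 74.5 and 196 TPM in SKOV3. In Hey PGCCs 1 of the 16 was called higher, GADD45A at 1.71, and 3 lower, UNG (-1.67), LIG3 (-1.07) and PARP1 (-1.01), of which UNG, a uracil glycosylase, and PARP1, a sensor of strand breaks, were named after their values were seen. These are 1 and 3 of 16 beside 7.67% and 5.22% of all genes. The lower count was 1 without mitochondrial genes, and 2 with quantile normalization or with the GC and length trend removed. In Hey daughter cells 1 was higher and 0 lower than in parental cells (all genes 6.31% and 3.73%). Against PGCCs 4 were higher and 1 lower in these cells (all genes 9.95% and 8.13%). In SKOV3 PGCCs 0 were called, beside 9.94% of all genes higher and 4.96% lower. In SKOV3 daughter cells 1 was higher and 2 lower than in parental cells (15.1% and 6.34%), and 1 was higher and 3 lower than in PGCCs (14.6% and 9.25%). For PGCCs against parental cells the median over these partners was -0.0056 (Hey) and 0.13 (SKOV3).

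Readers of methylated DNA and the enzymes of methyl donor and cofactor supply moved differently in the lines. MBD2, a reader of methylated CpG, was at 14.6, 13.6 and 34.4 TPM in Hey and at 70.3, 65.3 and 32.4 TPM in SKOV3. It was called higher in Hey daughter cells against parental cells, at 1.18, and lower in SKOV3 daughter cells, at -1.09. MBD3, a member of the same family, was at 3.43, 2.38 and 4.45 TPM in Hey and at 6.37, 21.9 and 8.54 TPM in SKOV3. Its call in SKOV3 PGCCs, at 1.64, came to 0.62 without the GC and length trend. IDH2, the mitochondrial isocitrate dehydrogenase, which makes the 2-oxoglutarate that TET enzymes use, was at 14.7, 10.5 and 12.9 TPM in Hey and at 14.8, 17.6 and 70.3 TPM in SKOV3. SKOV3 daughter cells were the only library far from the rest, with a difference from parental cells of 2.18. D2HGDH, which removes D-2-hydroxyglutarate, an inhibitor of TET enzymes, was at 6.98, 4.21 and 3.22 TPM in Hey and 2.13, 7.47 and 7.56 TPM in SKOV3. Its difference in SKOV3 PGCCs, 1.43, came to 0.37 without that trend, and its difference in daughter cells was 1.45.

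Germline genes are a class whose promoters are methylated and silent in most body cells, and 20 of them were examined. In SKOV3 daughter cells 5 of the 20 were called higher than in parental cells, beside 15.1% of all genes, and the same 5 higher than in PGCCs, beside 14.6%, and 15 stayed below 1 TPM in all 6 libraries. MAGEB2 was at 1.55, 2.31 and 76.0 TPM in SKOV3 parental cells, PGCCs and daughter cells, with a difference of 4.92. MAGEA3 was at 0.0937, 0.0913 and 22.0 TPM and TKTL1, a transketolase-like gene, at 0.0596, 0.141 and 17.9 TPM. MAGEA12 and DDX43 were listed at 0 in parental cells and PGCCs and were at 16.5 and 7.15 TPM in daughter cells. In Hey these genes were near 0 except MAGEA12, which was at 1.35, 1.09 and 0 TPM and was called lower in daughter cells. MAGEA3, TKTL1 and DDX43 were named after their values were seen. The 5 genes pass the filter of 1 TPM only because of the SKOV3 daughter library, so their count carries no test. MAGEA3 shares near-identical sequence with MAGEA6, so reads may be split between them and its value is uncertain. Methylation itself was not measured, and these are RNA levels of 1 clone.

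**Figure D5:**
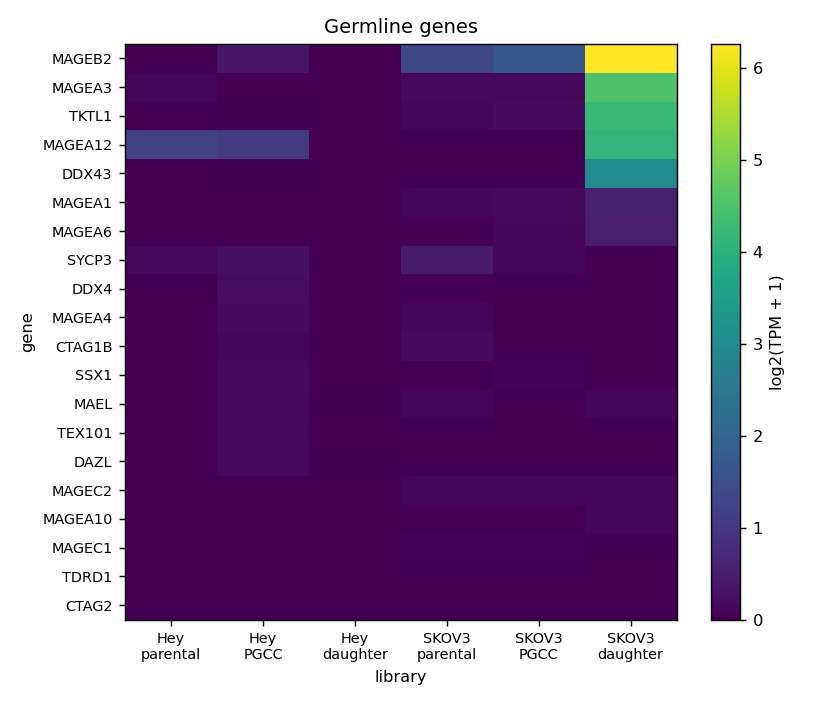
Level of the 20 germline genes (rows) in the 6 libraries (columns), with log2(TPM + 1) as colour. MAGEB2, MAGEA3, TKTL1, MAGEA12 and DDX43 reach 7.15 to 76.0 TPM in SKOV3 daughter cells and 2.31 TPM or less in the other 5 libraries.

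Across both lines, limma was fitted to log2(TPM + 1) with state and cell line as terms, over 14988 genes, with 2 residual degrees of freedom. Its error therefore comes from how far Hey and SKOV3 disagree, at the gene itself and, through eBayes with a trend, over all genes tested. For PGCCs against parental cells 0 of the 7 methylation genes tested passed an adjusted p of 0.05 (Benjamini-Hochberg, limma), against 0.02% of all genes, for daughter cells against parental cells 0, against 0.0133%, and for daughter cells against PGCCs 0, against 0%. At an unadjusted p under 0.05 the numbers over all genes were 409, 508 and 758, and 0 of the 7 in each. The smallest adjusted p among them was 1, 1 and 0.912 in limma. The estimate for DNMT1 in PGCCs was -0.98, with a standard error of 0.57 and a 95% interval of -2.31 to 0.35 (limma, adjusted p 1), and for UHRF1 it was -1.10 with a standard error of 0.70 (limma, adjusted p 1). TET3 in daughter cells had an estimate of 0.75, with a standard error of 0.41 and an interval of -0.22 to 1.72 (limma, adjusted p 1). These intervals include 0 and also differences well past 2-fold, so the test does not show that the states are alike.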

How the data were processed

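Per the labels and the study's methods, RNA of 6 libraries was sequenced, trimmed with fastp and quantified by the authors with salmon v0.14.1 on the hg38 transcriptome. TPM values per gene symbol were deposited by the authors and were used as deposited. The annotation release, the way transcripts were summed to genes and the bias options are not given in the sources used here. TPM values hold no read counts, so depth per gene is unknown and counting error cannot be given.

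The members and gene lists were chosen with earlier results of these data known. The 8 genes and all gene lists were read by symbol. Differences of log2(TPM + 1) were taken within each line, with a gene called at a difference of 1 and no p for 1 library against 1. The background is the 14988 genes whose mean TPM reached 1. limma 3.58.1 in R 4.3.3 used eBayes with a trend and Benjamini-Hochberg adjustment. Other steps used Python 3.11.15 (statsmodels 0.14.6, scipy 1.17.1, pandas 2.3.3, numpy 2.4.6) and were tested on simulated data. Named genes are the 8, plus from each list the genes called with 1 direction in Hey and SKOV3 alike, the 2 with the largest mean absolute difference and those listed at 0 in every library where few. Alternatives were a pseudocount of 0.1, other filters, median-ratio scaling, quantile normalization, mitochondrial genes left out, a 1.5-fold threshold and a GC and length trend removed by lowess (fraction 0.3, 2 passes). The runs of limma that leave out each library, and those of the lists, were chosen after seeing the data. Promoter windows and gene positions are from RefSeq (GRCh38.p14) and GENCODE 44, respectively.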

Additional observations from a re-analysis of the deposited data

Results flagged for a closer look

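For 6 pairs of gene and comparison, the differences of the 2 lines had opposite signs and 1 of them passed 2-fold. The other line was under 1.5-fold in each of these pairs. The difference between the lines was not tested in any of them, since each line has 1 library per state. In PGCCs against parental cells DNMT1 had -2.00 in Hey and 0.0417 in SKOV3, where median-ratio scaling gave -0.02 and removal of the GC and length trend -0.46, the direction of Hey. In daughter cells against parental cells DNMT3A had -0.17 in Hey and 1.27 in SKOV3, and DNMT3B had -0.13 and 1.44. In daughter cells against PGCCs DNMT1 had 1.75 in Hey and -0.40 in SKOV3, UHRF1 had 2.65 and -0.47, and DNMT3B had -0.12 and 1.04. Of the 24 such pairs, 17 had opposite signs at any size, and 0 had opposite signs with both lines past 1.5-fold.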

How the results depend on the processing

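Of 372 values of the 8 genes under the alternatives, 359 kept their call or lack of one, 9 became called and 4 no longer were. Of the 9, only those of TDG in SKOV3 daughter cells against parental cells passed 2-fold, with median-ratio scaling (-1.18) and quantile normalization (-1.12). The others were called only because the threshold was 1.5-fold. The other filters and the 1.5-fold threshold left each difference as it was, so they do not test its size. The sign differed in 16 of the 372 values, and 0 of the 16 were called. Among them were TET3 in SKOV3 PGCCs (0.44 to -0.07) and DNMT1 there (0.04 to -0.46) once the GC and length trend was subtracted. The calls of DNMT1 and UHRF1 in Hey PGCCs held in all settings, with differences of -2.08 to -1.83 and -2.45 to -2.05. The number of genes called changed as follows. With a 1.5-fold threshold, 1 was higher than in parental cells in Hey PGCCs (17.1% of all genes) and 1 in Hey daughter cells (17.2%). In SKOV3 PGCCs 1 was higher and 1 lower than in parental cells (22.9% and 16.3% of all genes). For SKOV3 daughter cells 3 were higher and 1 lower than in parental cells (28.1% and 13.6%). Against PGCCs 2 were higher there (28% of all genes). With median-ratio scaling 1 was lower in SKOV3 daughter cells against parental cells (8.34% of all genes) and 0 higher against PGCCs (11.4%). With quantile normalization 1 was higher and 1 lower in that first comparison (10.5% and 9.45%) and 0 higher in the second (11.6%). With the GC and length trend removed 1 was higher in the first (11.1%). The cause was not tested. limma gave 0 calls among the 7 genes in all settings, with smallest adjusted p of 0.495 to 1 over them. For the other gene lists, 381 of 420 counts stayed within 1.5 times and 39 did not. Leaving out mitochondrial genes moved the median of all genes by 0.12 in Hey PGCCs and to 0.24 in SKOV3 daughter cells against parental cells. limma without either line could not be fitted, as no residual degrees of freedom remain. No paired analysis was possible because each state has 1 replicate number per line, apart from the limma fit itself, whose cell line term pairs the libraries of a line. With 1 library per state and no read counts, the lowest genes, TET1 among them, carry no measure of error.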
